A study of Mus musculus with 17 samples.

Results

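Mouse embryonic stem cells were moved from L2i, which holds the naive state, to LIM, and the libraries described here set a stay of 4 days in LIM beside a stay of several passages. They were chosen by their labels and number 6 of the 17 in the series: LIM at day 4 and L2i at day 0 of a time course in line R1, and LIM and L2i of R1 and of line CGR8 in a second experiment with both lines. All cells grew without serum in N2B27 medium with LIF. LIM contained the MEK inhibitor PD325901 (0.1 µM) and the porcupine inhibitor IWP2 (2 µM), which blocks the secretion of Wnt ligands. L2i contained PD325901 at the same 0.1 µM with the GSK3 inhibitor CHIR99021 (3 µM), which activates the Wnt pathway inside the cell. All 6 libraries thus had MEK inhibited and LIF present. Day 4 cells had 3 passages in 2i and then 4 days in LIM, against 5 passages in 2i for day 0 cells. In the second experiment, R1 had 4 and CGR8 had 6 passages in LIM after 5 passages in 2i, against 10 (R1) and 8 (CGR8) passages in 2i for the L2i libraries.

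R1 and CGR8 are established lines of mouse embryonic stem cells, and each library is 1 culture of 1 line. Passages against L2i therefore had n = 2, with a line as the replicate, and p-values measure the spread between these libraries. Day 4 against day 0 had 1 library each and no test. The question asked of the values was which of the LIM changes are present by day 4 and which are seen after passages. The experiments also differed in the coating of the plates, which was gelatin with fetal calf serum in the time course and gelatin with a basement membrane extract in the other, and in the version of the sequencing protocol. These differences cannot be told apart from the time spent in LIM. The labels give the passages in LIM as a number and not in days, so the length of that stay is not known here. LFAI is a medium with LIF, FGF2 (12 ng/ml), Activin A (20 ng/ml) and IWP2 (2 µM), without PD325901, so MEK was not inhibited in it. It gave 4 further libraries, at 35 h and at 4 days in both lines, which joined the fit. LFAI at day 4 of the time course joined it as well. LFAI at 4 days has the same duration in both experiments and is given as a measure of how far they differ when the duration does not.

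In the naive state the cells resemble the epiblast before implantation and are held by a network that includes Nanog, Esrrb, Tfcp2l1 and Klf factors. Canonical Wnt signalling stabilises beta-catenin, which then acts with TCF/LEF factors at target genes and relieves repression of the naive network. On the way to the epiblast after implantation, Otx2 and the de novo DNA methyltransferases appear and the naive factors go down. At the rosette stage in the embryo, the epiblast polarises and begins to form a lumen.

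Depth was 12.9 to 22.6 M counts in genes per library, and 15065 genes passed a filter of 1 CPM (1 count in a library scaled to 1 M counts) in at least 2 of 11 libraries. The R1 L2i library of the second experiment was the deepest and had the fewest genes detected, 18733 of 47729 listed. Core pluripotency markers (10 genes) summed to 2930 CPM at day 4 and 2310 CPM at day 0, to 3340 CPM in R1 passages and 2960 CPM in R1 L2i, and to 3490 CPM in CGR8 passages and 2560 CPM in CGR8 L2i. Markers of other cell types were low in comparison. The primitive endoderm list, which holds Col4a1, summed to 204, 339 and 271 CPM in LIM (day 4, R1 passages, CGR8 passages), against 71.5, 60.4 and 86.5 CPM in the matching L2i libraries. Its factors Gata6, Sox17, Sox7 and Foxa2 did not pass the filter, while Gata4 and Hnf4a did. Of its 8 genes tested, 4 rose and 0 fell after passages in the edgeR test below (background 11.2% and 8.33% of all genes). By a log2 change of 1 or more, 7 were higher in R1 passages and 6 in CGR8 passages, against 15.1% and 15.6% of all genes. Fibroblast and feeder markers summed to 10.4, 17.4 and 15.1 CPM in LIM, against 17.0, 6.68 and 9.51 CPM in L2i. In bulk RNA, fewer cells of a type and less RNA per cell cannot be told apart.

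After passages more genes differed from L2i, and by more, than after 4 days. At a log2 change of 1 or more, on TMM-scaled CPM with a prior count of 2, day 4 had 1188 genes higher (7.89% of 15065) and 1067 lower (7.08%). R1 passages had 2282 higher (15.1%) and 1615 lower (10.7%), and CGR8 passages had 2357 higher (15.6%) and 1246 lower (8.27%). On day 1, 725 genes were higher (4.81%) and 646 lower (4.29%) by this fold. On day 2 the counts were 938 higher (6.23%) and 764 lower (5.07%), and on day 3 they were 1032 higher (6.85%) and 1051 lower (6.98%). At equal duration the second experiment also had more changes. LFAI at 4 days in R1 had 2647 genes higher and 2882 lower there, against 2327 and 2024 in the time course. The SD of the log2 changes in R1 was 0.85 at day 4 and 1.26 after passages in LIM. In LFAI it was 1.44 in the time course and 1.84 in the second experiment. The larger counts after passages thus cannot be told apart from the experiment. In the test with both lines, edgeR called 1681 genes as risen (11.2%) and 1255 as fallen (8.33%) after passages at an adjusted p under 0.05. Without the R1 L2i library 926 had risen and 573 fallen, without the R1 LIM library 1081 and 516, and without the CGR8 L2i library 1169 and 744.

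Across the 15065 genes, the R1 passage change and the day 4 change correlated with Pearson's r = 0.51, and the CGR8 passage change and the day 4 change with r = 0.59. The passage changes of the lines correlated with r = 0.76. Genes are not independent replicates, so these values only describe the libraries. The r of the levels was 0.944 between R1 passages and day 4, against 0.973 between R1 and CGR8 passages. It was 0.967 between the R1 L2i library and day 0, close to the 0.974 between the L2i libraries of R1 and CGR8.

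**Figure D1:**
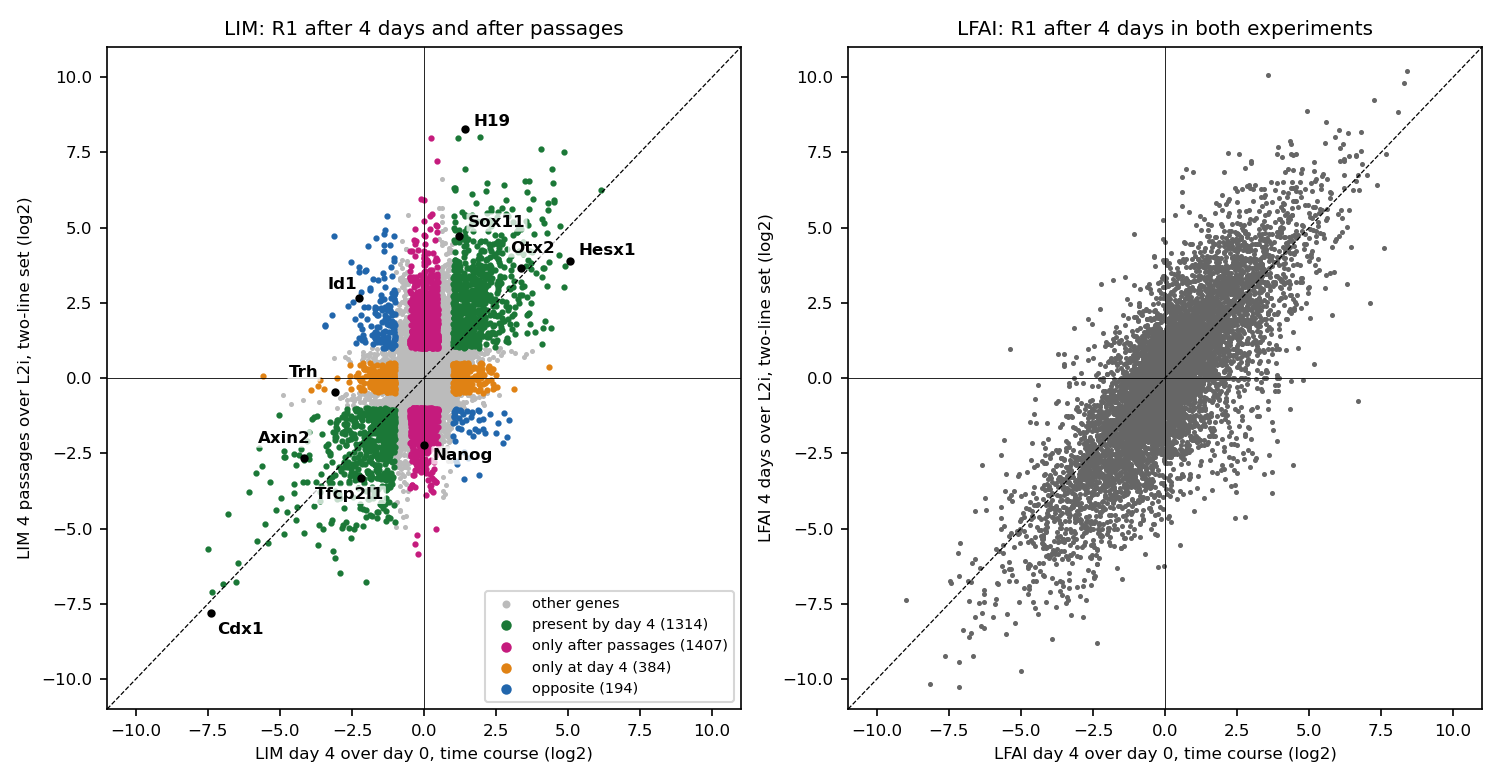
Change in R1 after 4 days (horizontal axis, log2 over day 0) and in the second experiment (vertical axis, log2 over L2i) for 15065 genes, with LIM on the left and LFAI on the right. The dashed line marks equal change. The correlation is r = 0.51 in LIM and r = 0.78 in LFAI, with 4 days in both experiments, while the distance from the dashed line is alike, with an SD of the difference of 1.11 in LIM and 1.14 in LFAI.

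Genes were then sorted by the 4 R1 libraries alone. A change was counted as present by day 4 where both log2 changes were 1 or more in 1 direction, and as seen only after passages where the passage change was 1 or more and the day 4 change under 0.5. Of the 2282 genes higher after R1 passages, 773 (33.9%) were present by day 4, 765 (33.5%) were near 0 at day 4, and 147 (6.44%) were lower by 1 or more at day 4. As shares of all genes these were 5.13%, 5.08% and 0.976%. Of the 1615 genes lower after R1 passages, 541 (33.5%) were present by day 4, 642 (39.8%) were near 0 and 47 (2.91%) were higher by 1 or more, which is 3.59%, 4.26% and 0.312% of all genes. The others lay between these limits. A further 186 genes were higher (1.23%) and 198 lower (1.31%) only at day 4, with an R1 passage change under 0.5. Since only the direction and the limit count, a gene present by day 4 could still be far higher after passages, as Sox11 and Podxl below.

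CGR8, which had no part in the sorting, served as a check. Its passage change was 1 or more in the same direction for 684 of the 773 genes present by day 4 and higher (88.5%), and for 422 of the 541 lower (78.0%). For the genes seen only after passages it was so for 412 of 765 higher (53.9%) and 196 of 642 lower (30.5%). Over all genes the shares are the 15.6% and 8.27% given above. The R1 and CGR8 passage libraries come from 1 experiment and the day 4 library from another, and the shares were not compared by a test. The classes also differed in the size of the R1 passage change. Its median was 2.45 (higher) and -2.19 (lower) for genes present by day 4, against 1.67 and -1.4 for those only after passages. The shares were not matched for this size.

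**Figure D2:**
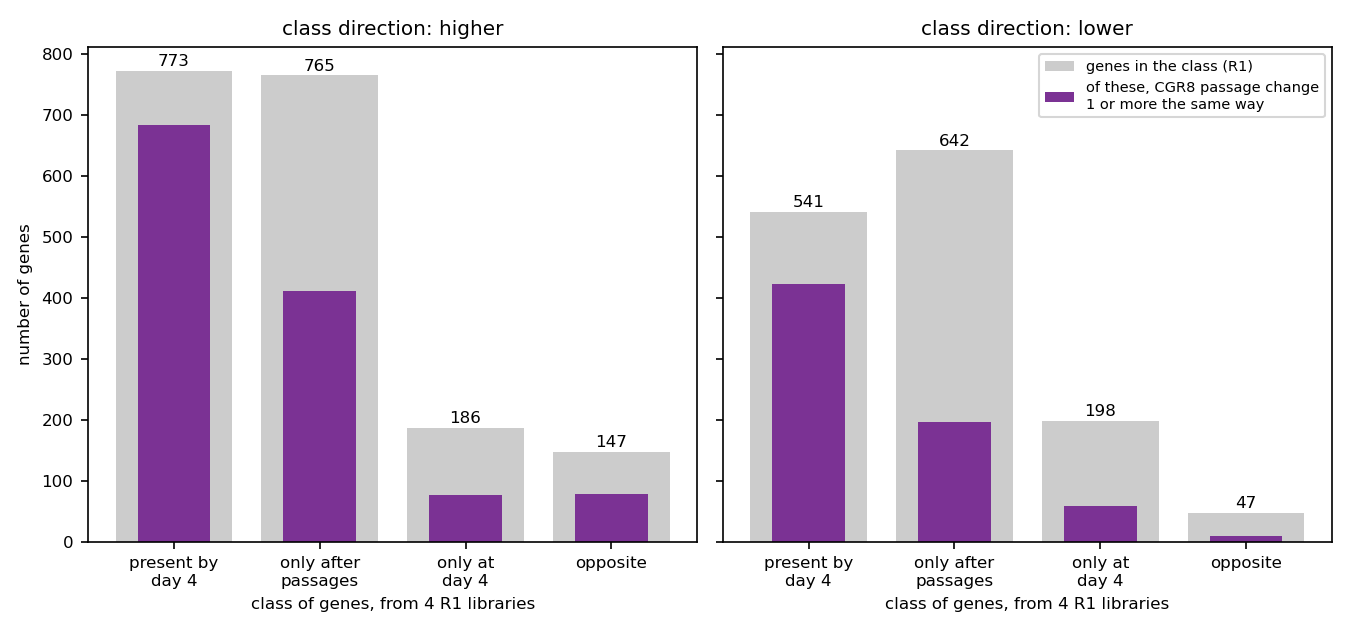
Number of genes in each class (grey bars, from the 4 R1 libraries) and of these the number whose CGR8 passage change was 1 or more the same way (purple bars); for genes only at day 4, the direction is that at day 4, and for opposite genes that after passages. The purple bar fills 684 of 773 for genes higher by day 4 and 196 of 642 for genes lower only after passages.

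The baselines accounted for part of the second class in arithmetic terms. The sorting used these same R1 libraries, so shares above those of all genes are built in and only describe the class. Of the 765 genes higher only after passages, 330 (43.1%) had an R1 LIM level after passages above day 4 by 1 or more, against 9.23% of all genes. In 335 (43.8%) the R1 L2i level of the second experiment lay below day 0 by 1 or more, against 10.5% of all genes. Of the 642 genes lower only after passages, 342 (53.3%) had a LIM level below day 4 by 1 or more, against 9.89% of all genes, and in 122 (19.0%) the L2i level lay above day 0 by 1 or more, against 4.59%. The LIM and L2i levels of each named gene are therefore given with its changes.

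The passage change minus the day 4 change was tested with edgeR on all 11 libraries, where the single libraries of day 0 and day 4 are assumed to vary like the others. It called 0 genes higher and 0 lower (0% each), with a smallest adjusted p of 0.059 and 1516 genes (10.1%) at an unadjusted p under 0.05. With the cell line as a block it called 43 higher (0.285%) and 9 lower (0.0597%), and DESeq2 called 162 higher and 90 lower. Against LFAI at 4 days in place of L2i as the baseline in both experiments, edgeR called 97 higher (0.644%) and 31 lower (0.206%). The sorting into classes is thus a description for most genes. Below, the edgeR result of this test is given for some genes, with the block or the LFAI baseline only in part. DESeq2 results are given for few genes. Where a result is not given, the gene may have passed or failed that test.

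At equal duration the experiments differed too. The LFAI change at 4 days differed between the experiments in 24 genes higher (0.159%) and 106 lower (0.704%) by edgeR. In R1 the LIM changes of the experiments differed by 1 or more in 23.6% of genes, and the LFAI changes in 24.1%. These comparisons share both L2i libraries, so for part of the genes below, the LFAI difference is given beside the LIM difference. It is the 4-day LFAI change in the second experiment minus that in the time course, log2.

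Genes that depend on the Wnt pathway were the clearest part of the response by day 4. Of 12 Wnt target genes tested, 7 were present by day 4 and lower (3.59% of all genes), and after passages 8 fell and 1 rose (background 8.33% and 11.2%). The median log2 change of the list was -2.84 at day 4, -2.08 after R1 passages and -1.61 after CGR8 passages, against -0.01, 0 and -0.01 over all genes. Axin2, a scaffold of the complex that degrades beta-catenin, had 6.53 CPM at day 4 and 121 CPM at day 0. After passages Axin2 had 15.9 CPM in R1 and 18.2 CPM in CGR8, against 101 CPM in R1 L2i and 155 CPM in CGR8 L2i. All 3 LIM libraries lay below all 3 L2i libraries. On the day series, Axin2 was at 15, 9.60, 8.03 and 6.53 CPM on days 1 to 4, so day 1 was already far below day 0. Axin2 fell after passages with a log2 change of -2.91 ± 0.23 (SE, n = 2, edgeR adjusted p 0.00026). The LFAI difference of Axin2 was -2.23 (edgeR adjusted p 0.044).

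Cdx1 and Cdx2, homeobox factors of posterior identity, and Sp5 and T (brachyury), transcription factors induced by Wnt, were also low in all 3 LIM libraries. Cdx1 was at 0.0734 CPM at day 4 and 34.4 CPM at day 0, at 0.063 CPM in R1 passages and 44.1 CPM in R1 L2i, and at 0.121 CPM in CGR8 passages and 67.9 CPM in CGR8 L2i. Sp5 was at 0.0734 CPM at day 4 and 22.7 CPM at day 0, with 1.13 and 0.0607 CPM in R1 and CGR8 passages, against 29.1 and 46.0 CPM in their L2i libraries. Cdx1, Cdx2, Sp5 and T each fell after passages in the edgeR test. Nkx1-2, a homeobox factor, also fell, with 0.587 CPM at day 4 and 90.1 CPM at day 0, and 0.315 and 0.243 CPM in R1 and CGR8 passages, against 51.2 and 73.6 CPM in L2i. On day 1 Cdx1, Cdx2 and Sp5 had 0 counts, T had 0.468 CPM and Nkx1-2 had 3.90 CPM.

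The promoters of the Wnt targets are shown because most of these genes were low from the first day. RefSeq promoters (GRCm38.p6, from 250 bases before to 50 after the start) were searched with 1 chromosome left out, also for the share over all promoters. Within this search, promoters were available for 9 of the 12 genes. The TCF/LEF motif was searched as CTTTGAA or CTTTGAT on both strands, which do not overlap each other, and was found for 3 of the 9 genes. Counted by promoter, 3 of their 15 promoters (20%) held it, against 8.65% of all 32851 promoters, and 1 of the promoters of Tnfrsf19 did. The capitals mark the motif. Sp5 lies at chr2:70474673-70474972 on the plus strand, T at chr17:8434173-8434472 on the plus strand, and the promoter of Tnfrsf19, a member of the TNF receptor family, at chr14:61037938-61038237 on the minus strand. A match describes the letters of this window only.
Sp5: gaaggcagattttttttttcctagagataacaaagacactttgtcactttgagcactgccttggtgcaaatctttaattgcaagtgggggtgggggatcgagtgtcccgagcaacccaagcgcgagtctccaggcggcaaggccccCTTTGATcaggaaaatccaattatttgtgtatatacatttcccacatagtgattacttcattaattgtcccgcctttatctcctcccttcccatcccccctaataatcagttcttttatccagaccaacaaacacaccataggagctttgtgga
T: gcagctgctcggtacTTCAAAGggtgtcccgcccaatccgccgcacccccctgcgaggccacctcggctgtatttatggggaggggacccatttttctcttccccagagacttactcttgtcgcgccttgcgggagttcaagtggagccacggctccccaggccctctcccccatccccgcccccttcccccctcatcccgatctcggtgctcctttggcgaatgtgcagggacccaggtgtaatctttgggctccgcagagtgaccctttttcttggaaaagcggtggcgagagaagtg
Tnfrsf19: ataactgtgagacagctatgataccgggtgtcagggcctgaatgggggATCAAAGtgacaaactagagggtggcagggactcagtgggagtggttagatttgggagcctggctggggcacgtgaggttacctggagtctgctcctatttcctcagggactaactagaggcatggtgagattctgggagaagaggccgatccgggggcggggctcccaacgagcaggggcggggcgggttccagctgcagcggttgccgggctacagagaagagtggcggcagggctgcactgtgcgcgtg

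A pair of Wnt list members behaved otherwise. Notum, an enzyme that inactivates Wnt ligands, had 97.0 CPM at day 4 and 98.5 CPM at day 0, and fell after passages, with 63.0 CPM in R1 and 62.9 CPM in CGR8, against 139 and 152 CPM in L2i. Lef1, a partner of beta-catenin that is also a gene of the later epiblast, was at 4.13, 6.76, 11.0 and 18.1 CPM on days 1 to 4, with 17.5 CPM at day 0. Lef1 then rose after passages, with 32.5 CPM in R1 and 77.1 CPM in CGR8, against 8.23 and 9.29 CPM in L2i (edgeR adjusted p 0.0049). For both genes the passage change minus the day 4 change did not pass in edgeR (edgeR adjusted p 0.23 for Notum and 0.30 for Lef1). It passed with DESeq2 (DESeq2 adjusted p 0.01 for Notum and 0.0072 for Lef1). The LFAI difference was -2.40 for Notum, in the same direction (edgeR adjusted p 0.023), and 0.14 for Lef1.

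**Figure D3:**
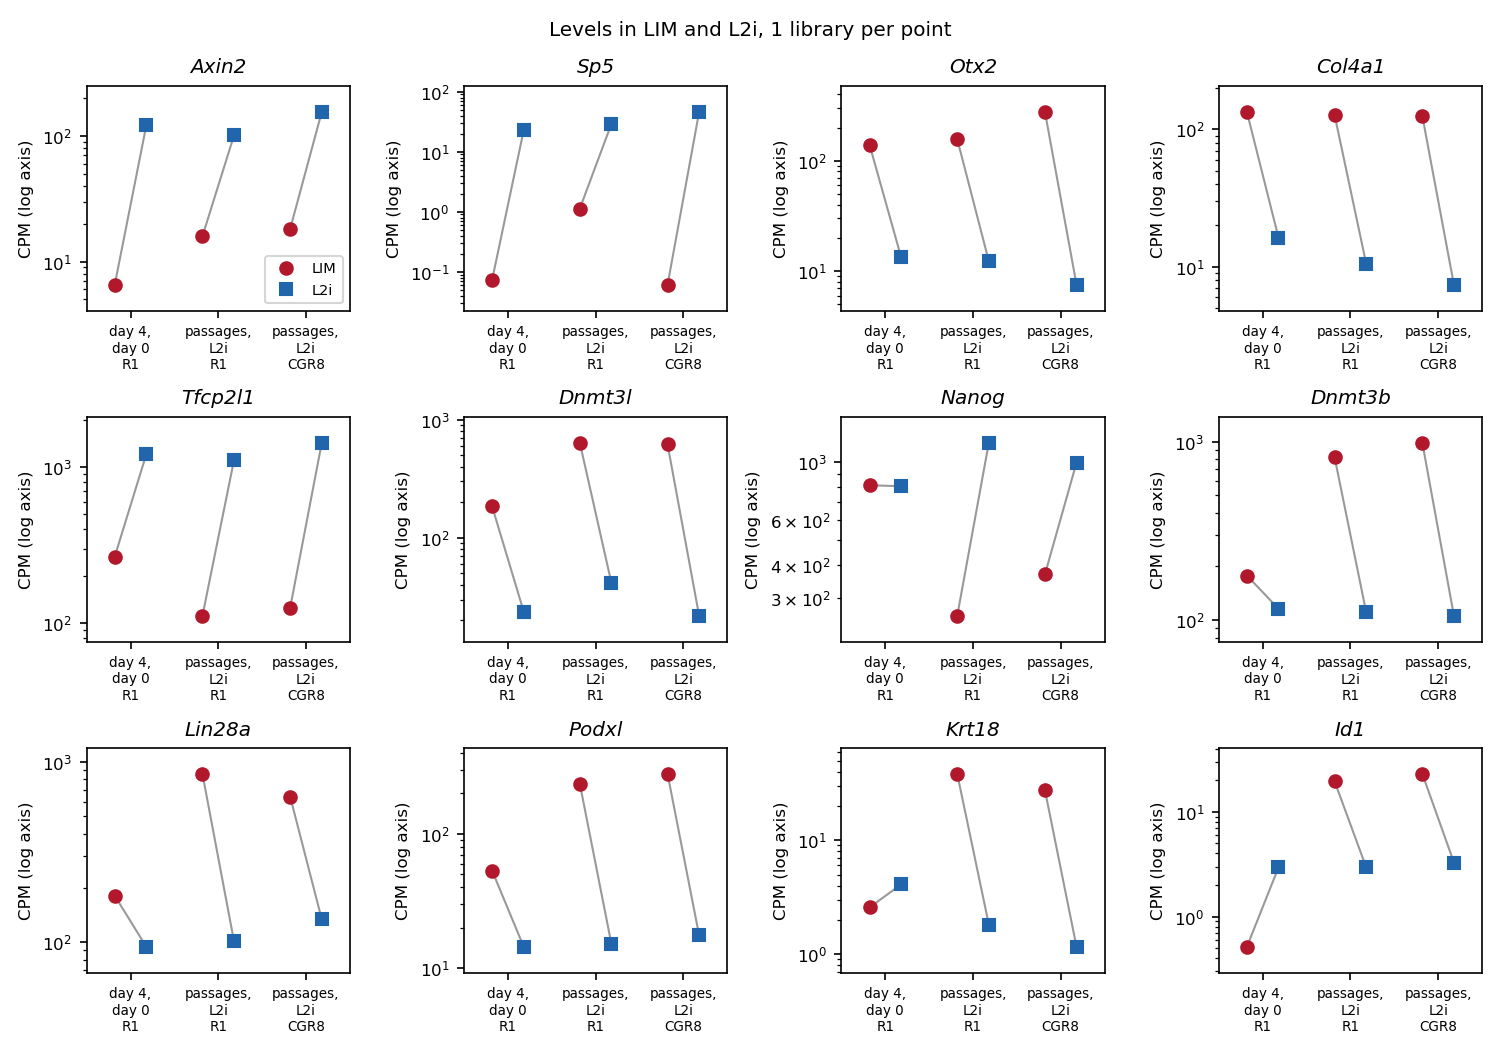
Level in CPM (log axis) of 12 genes in LIM (red circles) and the matching L2i library (blue squares), 1 library per point, for R1 at day 4 and day 0, R1 after passages and CGR8 after passages. Axin2, Sp5, Otx2 and Col4a1 differ in the same direction in the 3 pairs, while Nanog, Dnmt3b, Lin28a and Krt18 differ mainly in the passage pairs.

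Otx2 and several factors of the anterior nervous system were higher by day 4 and after passages. Of 18 genes of the epiblast around and after implantation, 15 rose and 1 fell after passages in the edgeR test (background 11.2% and 8.33%). At day 4 itself 9 were higher and 1 lower by 1 or more (7.89% and 7.08% of all genes), and 6 were in the class present by day 4 and higher (5.13%). The median log2 change of this list was 1.08 at day 4, 2.75 after R1 passages and 3.06 after CGR8 passages. Otx2, the transcription factor that opens the way to the later epiblast, had 140 CPM at day 4 and 13.4 CPM at day 0. It had 157 CPM in R1 passages and 277 CPM in CGR8 passages, against 12.3 and 7.51 CPM in L2i. On day 1 Otx2 was already at 82.0 CPM, and the LIM and L2i libraries did not overlap. Of the 8 anterior neural factors tested, 4 were in the class present by day 4 and higher (5.13% of all genes). After passages 5 rose and 1 fell (background 11.2% and 8.33%). Hesx1, a homeobox repressor of the forebrain region, had 9.10 CPM at day 4 and 0.143 CPM at day 0, with 41.1 and 34.7 CPM in R1 and CGR8 passages, against 2.62 and 0.956 CPM in L2i. Pax6 had 17.5 CPM at day 4 and 1.08 CPM at day 0, and 58.1 and 26.5 CPM after passages, against 5.10 and 4.10 CPM in L2i.

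By the rule for naming genes, the largest changes that were present by day 4 and shared by CGR8 included Dll1, Myrf and Crabp2. Dll1, a Notch ligand, had 19.4 CPM at day 4 and 0.143 CPM at day 0, and 34.6 and 31.0 CPM after passages, against 0.327 and 0.273 CPM in L2i. Myrf, a membrane-bound transcription factor, had 57.0 CPM at day 4 and 1.87 CPM at day 0, and 193 and 191 CPM after passages, against 0.935 and 1.5 CPM in L2i. Its level was high by day 4 and higher still after passages. Crabp2, which carries retinoic acid in the cell, was at 60.2 CPM at day 4 and 2.15 CPM at day 0, and at 94.6 and 97.8 CPM after passages, against 2.71 and 1.98 CPM in L2i. Ccnd2 (cyclin D2), Gap43, Fgf15, Car4 and Pkdcc were the other genes of this set, and each rose after passages.

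Basement membrane collagen was also higher by day 4. Col4a1 had 134 CPM at day 4 and 16.3 CPM at day 0, and 127 and 125 CPM in R1 and CGR8 passages, against 10.5 and 7.38 CPM in L2i. Col4a2 had 41.0 CPM at day 4 and 8.03 CPM at day 0, and 58.1 and 40.3 CPM after passages, against 6.31 and 4.10 CPM in L2i. The day 4 levels of both collagen IV chains lay close to the passage levels, and both rose in the edgeR test. Nid1 (nidogen), which links collagen IV to laminin, was lower only after passages, with 509 CPM at day 4 and 478 CPM at day 0, and 160 and 174 CPM after passages, against 562 and 533 CPM in L2i (edgeR adjusted p 0.017, and 0.055 to 0.093 without any 1 of these 4 passage and L2i libraries). Of the 18 basement membrane and integrin genes, 4 rose and 2 fell after passages (background 11.2% and 8.33%).

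Cdkn1a, Cdk6 and Ctsb were lower by day 4 and after passages, although their lists were mixed. Cdkn1a (p21) had 120 CPM at day 4 and 278 CPM at day 0, and 102 and 87.8 CPM after passages, against 252 and 242 CPM in L2i. Cdk6 had 12.6 CPM at day 4 and 81.4 CPM at day 0, and 19.8 and 11.8 CPM after passages, against 57.0 and 72.1 CPM in L2i. Ctsb (cathepsin B), a protease of the lysosome, had 99.4 CPM at day 4 and 225 CPM at day 0, and 89.5 and 95 CPM after passages, against 205 and 251 CPM in L2i. In each of these the 3 LIM libraries lay below the 3 L2i libraries, and each fell in the edgeR test. Of the 13 G1 cyclins and inhibitors, 2 were lower and 2 higher by day 4 (3.59% and 5.13% of all genes). Of the 14 lysosomal genes tested, 1 was lower by day 4, and 5 fell and 1 rose after passages (background 8.33% and 11.2%).

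Naive factors as a list were lower mainly after passages. Of 18 naive genes, 2 were present by day 4 and lower, and 7 were lower only after R1 passages (3.59% and 4.26% of all genes). At day 4 itself 3 were lower and 1 higher by 1 or more (7.08% and 7.89% of all genes). In the edgeR test 8 fell and 0 rose (background 8.33% and 11.2%). The list's median log2 change was -0.29 at day 4, -1.30 after R1 passages and -0.94 after CGR8 passages. The list also differed between the experiments in LFAI at equal duration, with a median difference of -2.25 in R1 (all genes 0.01). The median R1 passage change minus day 4 change was -1.2. Klf2, lower only after R1 passages, had 148 CPM at day 4 and 149 CPM in R1 passages, with 150 CPM at day 0 and 369 CPM in R1 L2i. Summed, the 18 genes reached 5170 CPM at day 4 and 5570 CPM at day 0, 2900 CPM in R1 passages and 6190 CPM in R1 L2i, and 3330 CPM in CGR8 passages and 6330 CPM in CGR8 L2i. Tfcp2l1 and Klf4, both also targets of LIF and STAT3, were the genes in the class present by day 4 and lower. Klf4 did not pass the test after passages (edgeR adjusted p 0.068) but fell with the cell line block (0.0054), with 68.4 CPM at day 4 and 144 CPM at day 0, and 82.2 and 119 CPM after passages, against 185 and 303 CPM in L2i. Tfcp2l1 fell, and had 266 CPM at day 4 and 1210 CPM at day 0, and 111 and 125 CPM after passages, against 1110 and 1430 CPM in L2i.

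Nanog, a central factor of the naive network, had 816 CPM at day 4 and 809 CPM at day 0. After passages Nanog had 255 CPM in R1 and 369 CPM in CGR8, against 1190 and 999 CPM in L2i, and it fell (log2 -1.81 ± 0.31 SE, n = 2, edgeR adjusted p 0.0054). The day 4 library lay among the L2i libraries. The passage change minus the day 4 change of Nanog was -1.82 ± 0.53 (SE; edgeR adjusted p 0.30, and 0.099 with the cell line block). In LFAI at equal duration the difference between the experiments was -2.23 in the same direction (edgeR adjusted p 0.12, and 0.021 with the block). Passages in LIM and the second experiment itself cannot be told apart for Nanog.

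Esrrb, Nr5a2, Dppa3 and Tet2 were also within 0.5 of day 0 on the log2 scale at day 4 and lower after passages of each line than in its L2i library. Esrrb had 624 CPM at day 4 and 761 CPM at day 0, and 314 and 427 CPM after passages, against 922 and 935 CPM in L2i. Tet2, an enzyme that oxidises 5-methylcytosine, had 189 CPM at day 4 and 199 CPM at day 0, and 49.8 and 71.5 CPM after passages, against 177 and 193 CPM in L2i. Esrrb, Nr5a2, Dppa3 and Tet2 each fell after passages in the edgeR test. Without the R1 LIM library the calls of Esrrb, Dppa3 and Tet2 were lost (edgeR adjusted p 0.097, 0.053 and 0.053), and that of Esrrb also without either L2i library (0.062 without R1, 0.057 without CGR8). The LFAI difference between the experiments was in the same direction, at -4.11 for Nr5a2, -6.87 for Dppa3 and -2.87 for Tet2 (edgeR adjusted p 0.019, 0.029 and 0.059, and 0.0069, 0.013 and 0.011 with the block). For Esrrb it was -1.73 (edgeR adjusted p 0.2, and 0.13 with the block). Dppa3 also had a far higher L2i level in the second experiment, with 117 CPM in R1 and 89.3 CPM in CGR8, against 23.4 CPM at day 0, and its day 4 level of 18.9 CPM lay between the R1 and CGR8 passage levels of 14.2 and 26.5 CPM. Pou5f1 and Sox2 of the core network did not pass in either direction (edgeR adjusted p 0.15 and 0.17), with 1590 CPM of Pou5f1 at day 4 and 1360 CPM at day 0, and 1200 and 1370 CPM after passages, against 1850 and 1420 CPM in L2i.

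The de novo DNA methyltransferases differed in how much of their change was seen by day 4. Dnmt3a had 309 CPM at day 4 and 100 CPM at day 0, and 172 and 320 CPM after passages, against 81.7 and 49.3 CPM in L2i, so its day 4 level lay within the range of the passage levels. Dnmt3l, the cofactor without catalytic activity, had 184 CPM at day 4 and 23.8 CPM at day 0, and 634 and 615 CPM after passages, against 41.5 and 21.9 CPM in L2i, so its day 4 level lay between the L2i and the passage levels. Dnmt3b had 178 CPM at day 4 and 116 CPM at day 0, and 814 and 982 CPM after passages, against 111 and 106 CPM in L2i. The L2i levels of Dnmt3b were thus alike in both experiments, and the LIM levels differed. All of these rose after passages in the edgeR test, as did Tet3, with Dnmt3a not passing without the CGR8 L2i library (edgeR adjusted p 0.062). In LFAI the 4-day change of Dnmt3l was 2.78 in the time course, but -1.93 in R1 and -1.04 in CGR8 of the second experiment. Its LFAI difference was thus -4.36 (edgeR adjusted p 0.010), opposite to its LIM difference. The maintenance enzymes Dnmt1 and Uhrf1 were at 553 and 701 CPM at day 4, against 605 and 719 CPM at day 0.

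Dnmt3b showed a passage change minus day 4 change of 2.43 ± 0.44 on the log2 scale (SE; edgeR adjusted p 0.16, and 0.068 with the cell line block). Its LFAI difference between the experiments was 0.12 (edgeR adjusted p 0.92 with the block), with an LFAI change at 4 days of 4.16 in the time course and 4.18 in R1 of the second experiment.

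Genes with that same combination, a later LIM rise and a small LFAI difference, included Sox11, Podxl, Lin28a and Mest. Sox11, a transcription factor of the early neural lineage and epiblast, had 7.41 CPM at day 4 and 3.08 CPM at day 0, and 51.5 and 43.0 CPM after passages, against 1.82 and 1.57 CPM in L2i. Its passage change exceeded the day 4 change by 3.52 ± 0.40 (SE; edgeR adjusted p 0.059, and 0.016 with the block), and the LFAI difference was 0.37. Podxl, a sialomucin of the apical surface that lines lumens, had 53.1 CPM at day 4 and 14.4 CPM at day 0, and 235 and 279 CPM after passages, against 15.1 and 17.5 CPM in L2i. For Podxl the difference was 2.10 ± 0.31 (SE; edgeR adjusted p 0.085, and 0.045 with the block), and the LFAI difference was 0.24.

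Lin28a, an RNA-binding protein that blocks maturation of let-7 microRNAs, had 181 CPM at day 4 and 94.3 CPM at day 0, and 856 and 640 CPM after passages, against 101 and 134 CPM in L2i. On the day series Lin28a was at 64.5, 83.6, 159 and 181 CPM on days 1 to 4, so it lay below day 0 at first and above it from day 3. Its difference was 1.73 ± 0.34 (SE; edgeR adjusted p 0.17, and 0.091 with the block), with an LFAI difference of 0.42. Mest, an imprinted gene, had 127 CPM at day 4 and 80.1 CPM at day 0, and 402 and 313 CPM after passages, against 84.0 and 50.1 CPM in L2i (edgeR adjusted p 0.28, and 0.035 with the block). The 4 genes were chosen for this combination after their values were seen.

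**Figure D4:**
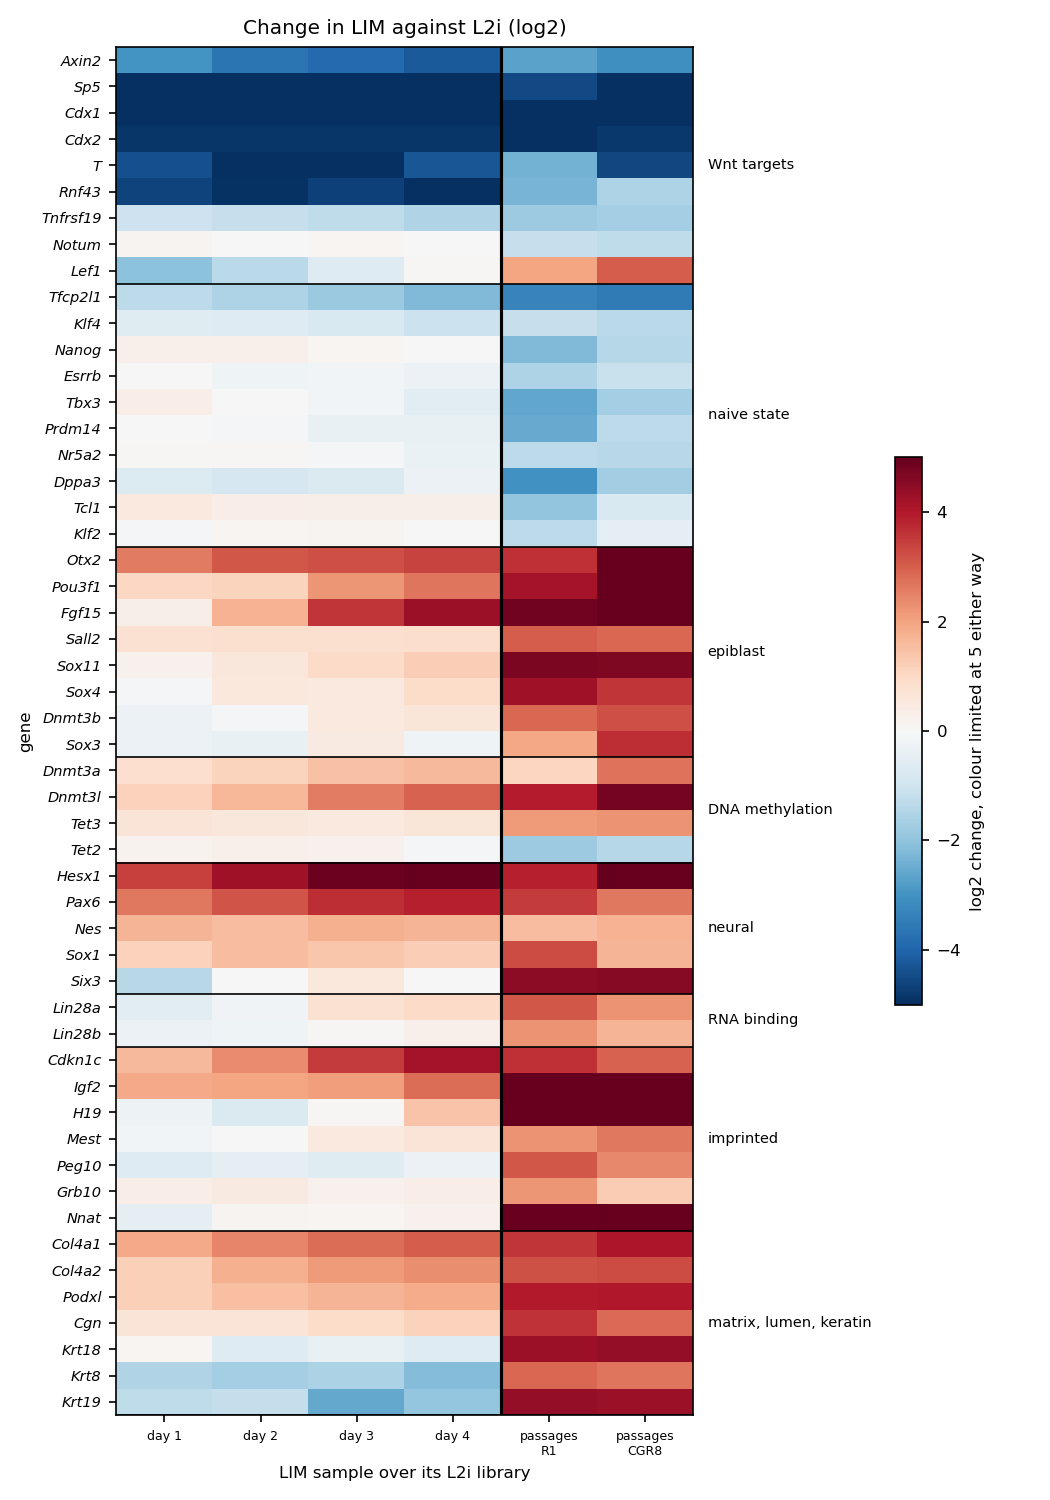
Log2 change in LIM of genes grouped by role, over day 0 for days 1 to 4 and over the L2i library of the same line for R1 and CGR8 passages (1 library per column and 1 per baseline; colours limited at 5 either way). Most Wnt targets, such as Axin2, are blue and Otx2, Hesx1 and Col4a1 red in all columns. Nanog, Tet2, Mest and Krt18 are paler on days 1 to 4 than in the passage columns.

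Imprinted genes mostly rose after passages. Of 19 tested, 15 rose and 1 fell (background 11.2% and 8.33%). In R1, 5 were in the class present by day 4 and higher, and 5 were higher only after passages (5.13% and 5.08% of all genes). The median log2 change was 0.64 at day 4, 2.61 after R1 passages and 1.77 after CGR8 passages. H19, a maternally expressed long RNA, had 1.76 CPM at day 4 and 0.574 CPM at day 0, with 242 CPM in R1 passages and 52.7 CPM in CGR8 passages, against 0.655 and 0 CPM in L2i. Igf2, its neighbour, had 2.27 CPM at day 4 and 0.215 CPM at day 0, with 158 and 48.3 CPM after passages, against 1.73 and 0.0683 CPM in L2i. The passage levels of both were far above day 4, and R1 was above CGR8. The difference for H19 passed with the block (edgeR adjusted p 0.040) and not without it (0.53). Cdkn1c (p57) was an imprinted gene raised early, with 19.0 CPM at day 4 and 0.933 CPM at day 0, and 75.3 and 31.8 CPM after passages, against 5.80 and 3.96 CPM in L2i.

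Contractile actin genes rose together after passages. All 9 genes tested rose (background 11.2%), with 5 of them present by day 4 (5.13% of all genes). Among these 5, Tagln had 9 counts at day 4 and 3 at day 0, and Actc1 had 7 and 0, so their day 4 changes rest on few counts. The median log2 change was 1.19 at day 4, 5.19 after R1 passages and 4.83 after CGR8 passages. Tagln (transgelin), an actin-binding protein of smooth muscle, had 0.660 CPM at day 4 and 0.215 CPM at day 0, and 79.9 and 19.6 CPM after passages, against 0.187 and 0.0683 CPM in L2i. Acta1, an actin of striated muscle, had 0.0734 CPM at day 4 and 0.0717 CPM at day 0, and 7.94 and 3.64 CPM after passages, against 0 counts in both L2i libraries. Both genes were under 1 CPM at day 4 and plainly detected after passages. The call of Actc1 was lost without the R1 L2i, the CGR8 L2i or the CGR8 LIM library (edgeR adjusted p 0.066, 0.078 and 0.089). The list also differed between the experiments in LFAI at equal duration, with a median difference of 3.94 in R1 (all genes 0.01). The coating of the plates differed between the experiments as well, and its part cannot be told apart.

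Promoters of contractile genes are shown since the genes rose as a group. In the same search, promoters were available for 8 of the 9 genes. The CArG box, a sequence bound by serum response factor (searched on both strands), was found in 3 of the 8, against 1.63% of all 32851 promoters searched. The capitals mark the box. Acta1 lies at chr8:123894726-123895025 on the minus strand, Actc1, the cardiac actin gene, at chr2:114052826-114053125 on the minus strand, and Myl9, a light chain of myosin, at chr2:156775214-156775513 on the plus strand. As before, a match is a description only.
Acta1: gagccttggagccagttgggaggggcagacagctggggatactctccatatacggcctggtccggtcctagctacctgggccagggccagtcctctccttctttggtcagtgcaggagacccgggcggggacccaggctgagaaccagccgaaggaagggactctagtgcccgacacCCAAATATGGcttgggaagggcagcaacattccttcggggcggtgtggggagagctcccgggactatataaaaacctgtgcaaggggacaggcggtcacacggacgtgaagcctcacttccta
Actc1: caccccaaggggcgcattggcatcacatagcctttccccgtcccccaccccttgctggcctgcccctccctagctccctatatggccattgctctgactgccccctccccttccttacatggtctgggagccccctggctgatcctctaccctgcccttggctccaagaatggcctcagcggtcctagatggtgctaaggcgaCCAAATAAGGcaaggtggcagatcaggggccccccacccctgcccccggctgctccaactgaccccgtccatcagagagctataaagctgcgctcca
Myl9: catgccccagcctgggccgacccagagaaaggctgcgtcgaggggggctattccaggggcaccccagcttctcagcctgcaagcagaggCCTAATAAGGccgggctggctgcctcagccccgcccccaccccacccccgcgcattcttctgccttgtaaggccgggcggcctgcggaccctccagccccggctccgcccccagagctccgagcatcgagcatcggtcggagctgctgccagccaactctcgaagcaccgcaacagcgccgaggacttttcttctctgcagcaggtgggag

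Myl9 was among the contractile genes that moved by day 4, with 4.04 CPM at day 4 and 0.215 CPM at day 0, and 19.6 and 12.7 CPM after passages, against 0.140 and 0.0683 CPM in L2i. Acta1 had the same low level at day 4 as at day 0. Its passage change minus day 4 change did not pass in edgeR (edgeR adjusted p 0.37, and 0.24 with the block), but did with DESeq2 (DESeq2 adjusted p 0.047).

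Simple keratins were lower than L2i at day 4 and higher after passages. Krt8 had 2.94 CPM at day 4 and 13.8 CPM at day 0, and 64.7 and 34.9 CPM after passages, against 8.75 and 5.33 CPM in L2i. Krt19 had 0.294 CPM at day 4 and 1.51 CPM at day 0, and 17.3 and 13.5 CPM after passages, against 0.702 and 0.547 CPM in L2i. Krt18, the partner of Krt8 in filaments, had 2.57 CPM at day 4 and 4.09 CPM at day 0, and 38.2 and 27.4 CPM after passages, against 1.82 and 1.16 CPM in L2i. Each keratin rose after passages in the edgeR test, and the day 4 level of each lay below day 0. The call of Krt8 was lost without the R1 L2i, the CGR8 L2i or the R1 LIM library (edgeR adjusted p 0.059, 0.089 and 0.072). The difference for Krt18 was 5.09 ± 0.92 (SE, edgeR adjusted p 0.16, and 0.012 with the block), and its LFAI difference was 3.73 in the same direction (edgeR adjusted p 0.10, and 0.0047 with the block). The LFAI difference was 4.17 for Krt8 (edgeR adjusted p 0.13, and 0.03 with the block) and 4.78 for Krt19 (0.15, and 0.086 with the block). Trophoblast markers, to which Krt8 and Krt18 belong, summed to 72.3 CPM at day 4 and 81.8 CPM at day 0, to 182 CPM in R1 passages and 123 CPM in R1 L2i, and to 143 CPM in CGR8 passages and 118 CPM in CGR8 L2i. Elf5 and Plac1 did not pass the filter. Of the 9 trophoblast markers tested, 5 rose and 2 fell after passages (background 11.2% and 8.33%), and the part of such cells was not tested.

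Id1, a BMP target that inhibits bHLH factors, was another gene with opposite changes. It had 0.514 CPM at day 4 and 2.94 CPM at day 0, and 19.5 and 23 CPM after passages, against 2.95 and 3.28 CPM in L2i. The L2i levels were alike in the 3 libraries, and the LIM levels lay on either side of them. The difference was 5.27 ± 0.73 (SE; edgeR adjusted p 0.079, 0.040 with the block, and 0.022 with LFAI as the baseline), with an LFAI difference of -0.03. Greb1 showed the same order, with 0.294 CPM at day 4 and 1.65 CPM at day 0, and 10.8 and 6.62 CPM after passages, against 0.795 and 0.410 CPM in L2i. Of the 8 BMP targets tested, 2 rose and 1 fell after passages (background 11.2% and 8.33%).

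Other genes higher only after passages were Zfp608, Igfbp4, Nnat, Bcl6b, Zfhx4, Tmem98, Zyx and Arl4c, and each rose in the edgeR test. The calls of Nnat and Zfhx4 were lost without the R1 L2i library (edgeR adjusted p 0.060 and 0.055), that of Nnat also without the CGR8 L2i library (0.073), and that of Zfhx4 without the R1 LIM library (0.066). Zyx (zyxin), a focal adhesion protein, had 5.36 CPM at day 4 and 7.32 CPM at day 0, and 43.1 and 16.5 CPM after passages, against 3.18 and 2.80 CPM in L2i. Igfbp4, a binding protein of insulin-like growth factors, had 2.79 CPM at day 4 and 3.95 CPM at day 0, and 8.44 and 18 CPM after passages, against 0.327 and 0.137 CPM in L2i. For Igfbp4 the baselines differed more than the LIM levels did. The differences of Zyx, Igfbp4 and Tmem98 passed with the block (edgeR adjusted p 0.040, 0.047 and 0.045), and their LFAI differences were 2.12, 3.88 and 3.53. Zfp608 had 0.367 CPM at day 4 and 0.287 CPM at day 0, and 32.9 and 23.3 CPM after passages, against 0 and 0.137 CPM in L2i.

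Genes lower only after passages were Fbln5, Aurkc, Prrt3, Myo1f, Aqp3, Halr1, Sgcz and Dusp14, and each fell in the edgeR test. Dusp14, Sgcz and Halr1 did not pass without the R1 LIM library (edgeR adjusted p 0.057, 0.10 and 0.075), Dusp14 and Sgcz also without the R1 L2i library (0.060 and 0.17) or the CGR8 LIM library (0.054 and 0.14), and Halr1 also without the CGR8 L2i library (0.066). Aqp3, a channel for water and glycerol, had 65.1 CPM at day 4 and 90.9 CPM at day 0, and 18.6 and 12.0 CPM after passages, against 236 and 171 CPM in L2i. Prrt3 had 25.7 CPM at day 4 and 21.5 CPM at day 0, and 3.34 and 4.19 CPM after passages, against 45.4 and 32.2 CPM in L2i. In both genes the day 4 level lay above the passage levels, and the difference for Aqp3 was -3.25 ± 0.59 (SE, edgeR adjusted p 0.16, and 0.047 with the block). The LFAI difference of Aqp3 was -1.43 (edgeR adjusted p 0.53). The difference for Prrt3 was -3.62 ± 0.46 (SE; edgeR adjusted p 0.059, 0.035 with the block, and 0.034 with LFAI as the baseline), and the LFAI difference was -0.51. Alpl, tissue-nonspecific alkaline phosphatase and a marker of pluripotent cells, also passed with the block (-2.05 ± 0.26, edgeR adjusted p 0.035; 0.059 without the block), with an LFAI difference of -2.08 (edgeR adjusted p 0.019).

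A smaller set differed at day 4 and not after R1 passages. In CGR8 the passage change was 1 or more in the day 4 direction for 76 of its 186 higher genes (40.9%) and 58 of its 198 lower genes (29.3%), against 15.6% and 8.27% of all genes, so part of the set was shared by CGR8 passages. Trh, the precursor of thyrotropin-releasing hormone, had 3.82, 3.56, 6.03 and 7.04 CPM on days 1 to 4, with 60.8 CPM at day 0. After passages Trh had 58.6 CPM in R1 and 79.7 CPM in CGR8, against 80.6 and 103 CPM in L2i, so its day 4 level lay below all 5 other libraries. The passage change exceeded the day 4 change by 2.70 ± 0.68 (SE, edgeR adjusted p 0.24, 0.035 with the block, and 0.034 with LFAI as the baseline). The LFAI difference of Trh was -1.77, in the other direction (edgeR adjusted p 0.25, and 0.021 with the block). Sox21 was higher at day 4, with 54.5 CPM and 13.8 CPM at day 0, and had 19.6 and 15.2 CPM after passages, against 15.7 and 23.8 CPM in L2i. Tubb3, a tubulin of neurons, had 339 CPM at day 4 and 87.5 CPM at day 0, and 188 and 176 CPM after passages, against 242 and 129 CPM in L2i. Dhrs3, which reduces retinaldehyde, and Nr3c2 were the other genes named as higher at day 4 and not after R1 passages, and Cap2, Pdzrn3 and Optn as lower. CGR8 passages changed in the day 4 direction by 1 or more for 3 of these, at 1.04 for Nr3c2, -1.09 for Cap2 and -1.67 for Pdzrn3.

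Of 18 cholesterol genes, 9 rose after passages in the edgeR test (background 11.2%), with median log2 changes of 0.48 at day 4, 0.54 in R1 passages and 0.52 in CGR8 passages. Of 17 glycolysis genes, 2 rose, a share near the 11.2% of all genes. By 1 or more, 1 was higher at day 4, 2 in R1 passages and 8 in CGR8 passages, against 7.89%, 15.1% and 15.6% of all genes. Ldha (lactate dehydrogenase A) had 1820 CPM in CGR8 passages and 745 CPM in CGR8 L2i, but 411 CPM in R1 passages and 642 CPM in R1 L2i. Bnip3, a HIF target, had 167 CPM in CGR8 passages and 11.8 CPM in CGR8 L2i, and 12.1 CPM in R1 passages and 8.56 CPM in R1 L2i. Each line has a single library in each medium, so the difference between R1 and CGR8 has no test.

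Signalling targets with MEK inhibited in both media were mixed. Of 16 MEK/ERK targets, 5 rose and 1 fell after passages (background 11.2% and 8.33%), with 3 in the class present by day 4 and higher (5.13% of all genes). Dusp6, a phosphatase that acts on ERK, had 14.2 CPM at day 4 and 4.66 CPM at day 0, and 13.5 and 14.8 CPM after passages, against 4.12 and 5.60 CPM in L2i. Its level was thus as high at day 4 as after passages. Myc had 3.52 CPM at day 4 and 6.38 CPM at day 0, and 29.9 and 19.3 CPM after passages, against 8.23 and 8.20 CPM in L2i, and it rose (edgeR adjusted p 0.0086, and 0.055 and 0.051 without the R1 L2i and R1 LIM libraries). Lefty1, a target and antagonist of Nodal, had 102 CPM at day 4 and 27.7 CPM at day 0, 13.9 CPM in R1 passages and 47.2 CPM in R1 L2i, and 28.5 CPM in CGR8 passages and 7.58 CPM in CGR8 L2i. Of the 9 Nodal and Activin targets, 2 rose and 2 fell after passages. Among 14 germline genes 1 rose and 2 fell, and among 20 apical and junction genes 6 rose and 4 fell, all read against a background of 11.2% risen and 8.33% fallen.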

How the data were processed

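Raw counts of reads per Ensembl gene were deposited as 1 table per library. The libraries were polyA-selected and stranded, on a HiSeq2500, per the labels' protocols, and HISAT2 2.0.4, HTSeq 0.6.1, DESeq2 1.10.1 and the build GRCm38 are named in the submitters' processing notes. The strand setting and annotation of the counting are not given in the sources used here, so genes that overlap an antisense partner are uncertain. Each table listed 47729 genes and 5 summary entries, which were left out and held 47.7 to 51.9% of the reads. Of the gene IDs, 98.94% matched a symbol. No library pair was identical, and 14 of 17 libraries were used (LFAI at days 1 to 3 was not used here). Counting error is small at this depth for genes above 5 CPM, and levels under 1 CPM rest on few counts.

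Counts of 11 libraries (7 groups, 4 residual degrees of freedom) were fitted with edgeR 4.0.16 in R 4.3.3 (TMM factors 0.944 to 1.106, quasi-likelihood F test, group means, two-sided, Benjamini-Hochberg over 15065 genes). The tests were LIM passages against L2i, this change minus the day 4 change, the same with LFAI at 4 days as the baseline, and the LFAI difference between the experiments. Changes of single libraries are log2 CPM with a prior count of 2. Replicates share a line by the labels, so the line pairs them, and residuals of same-line libraries correlated at 0.04 to 0.42 over 6 pairs of groups (0.17 for LIM and L2i). The script was tested on simulated data.

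The 29 gene lists, the classes and the genes named were chosen with earlier results of these data known. Named are up to 8 genes per class and direction (4 for the smaller classes) with CGR8 in the same direction and 5 CPM or more, a panel of 20 genes, and up to 4 members per list. Actc1, Alpl, Dnmt1, H19, Igf2, Ldha, Lef1, Nid1, Tagln, Tnfrsf19 and Uhrf1 were chosen after their values were seen. Alternatives were DESeq2 1.42.0, DESeq2 size factors, other filters, prior counts, fold thresholds and days, the line as a block, the 6 libraries of L2i and LIM alone, and each library left out.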

Additional observations from a re-analysis of the deposited data

Results flagged for a closer look

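In 8 of 171 named genes the day 4 change and the passage changes of both lines were each 1 or more on the log2 scale in opposite directions. The R1 passage change minus the day 4 change was 4.92 for Id1, 5.05 for Krt8, 5.63 for Greb1 and 6.33 for Krt19, all lower at day 4 and higher after passages. It was 3.68 for P4ha2, a collagen prolyl hydroxylase, 4.08 for Col1a1 and 5.15 for Col1a2, also lower at day 4 and higher after passages, and -4.17 for the homeobox factor Vax2, higher at day 4 and lower after passages. Col1a2 was at 0 CPM at day 4, 1.29 CPM at day 0, 1.70 CPM in R1 passages and 0.421 CPM in R1 L2i, so its value depends on the prior count. None of the 8 passed the edgeR test of the difference itself without the block, and Id1 and Greb1 passed with it (adjusted p 0.040 and 0.035).

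Lefty1 moved in opposite directions in the lines, with a passage change of -1.75 in R1 and 1.89 in CGR8. The difference between the lines was not tested, as each line has 1 library per medium.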

How the results depend on the processing

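The comparison of passages with L2i kept its counts within 1.5 times under every alternative other than leaving out a library. Leaving out 1 library of the second experiment gave 926 to 1609 genes risen and 516 to 1164 fallen. The passage change minus the day 4 change called 0 to 14 higher and 0 to 3 lower with 1 library left out, against 0 and 0. It stayed at 0 and 0 with DESeq2 size factors and with the 6 libraries of L2i and LIM alone, and other fits gave more: 43 and 9 with the replicate block (cell line), 162 and 90 with DESeq2, 390 and 261 with no filter, 97 and 31 with LFAI as the baseline, 10 and 4 with day 3 in place of day 4, and 108 and 57 with days 3 and 4 as 1 group. The LFAI difference, with 24 and 106 calls, had 94 and 296 with the block, 156 and 434 with DESeq2, 357 and 831 with no filter, and 2 to 37 and 30 to 138 with 1 library left out. The block moved no count of passages against L2i past 1.5 times.

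With a fold limit of 1.5 the classes (higher and lower) held 378 and 272 genes by day 4, 448 and 274 only after passages, 66 and 76 only at day 4, and 40 and 11 opposite. With a filter of 5 CPM they held 508 and 297, 442 and 418, 110 and 83, and 68 and 18. With no filter, 812 were lower by day 4, 1283 and 1231 changed only after passages, 705 and 823 only at day 4, and 279 and 150 were opposite. A prior count of 8 left 52 and 23 opposite. With CGR8 in place of R1, 369 were lower only after passages and 18 opposite and lower. With LFAI as the baseline the difference changed sign for Dll1 (4.25), Klf2 (3.43), Nr5a2 (3.11), Dppa2 (2.88) and Stk31 (2.66). The cause was not tested. Genes under 1 CPM rest on few counts, and the day 0 and day 4 libraries have no replicate.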
